A study of Mus musculus with 18 samples.

Results

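miR-802 is a liver miRNA whose hairpin gives 2 mature products, mmu-miR-802-5p and mmu-miR-802-3p (here miR-802-5p and miR-802-3p), and these arms and the ratio between them are described here across 6 groups of mouse livers. The members were chosen by name, with earlier results of these data known, as 2 of the 758 mature miRNAs in the deposited table. Both were found in every library and passed the filter on low values. The mice were wild-type C57BL/6J, an inbred laboratory strain, placed on their regimens at 5 weeks of age and sampled at 62 weeks. The groups are named HF+CR, HF+Ex, HF, LF+CR, LF+Ex and LF, with 3 libraries each, 18 in all. The sources used here do not spell the names out, and they are read as a high-fat (HF) or low-fat (LF) diet, alone or with calorie restriction (CR) or exercise (Ex). Strain, genotype and tissue were shared by all groups, and neither the sex of the mice nor how much CR or Ex they had is given in the sources used here. Whether each library stands for its own mouse is not stated, so p-values measure only the spread between these libraries, which may be technical.

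A miRNA hairpin is cut by Dicer into a short duplex, of which usually 1 strand is loaded into Argonaute and the other is degraded, so the arms of a hairpin often differ widely in level. Bases 2 to 8 of the loaded strand, the seed, pair with target mRNAs. miR-802 is expressed in liver, pancreas, kidney and intestine; in mice, hepatic miR-802 is known to be raised in obesity and to impair glucose handling.

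The sequences of both arms are shown because the ratio of these strands is 1 of the 3 quantities measured. Capitals mark the seed, written 5′ to 3′, from RefSeq on GRCm38.p6.
mmu-miR-802-5p: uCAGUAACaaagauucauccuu
mmu-miR-802-3p: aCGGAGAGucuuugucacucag
The hairpin is shown next because it places both arms, here in capitals, on 1 precursor.
Mir802: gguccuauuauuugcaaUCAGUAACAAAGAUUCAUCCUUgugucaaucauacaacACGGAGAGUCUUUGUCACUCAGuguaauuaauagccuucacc
The precursor gene Mir802 lies on chromosome 16, 93369720 to 93369816, plus strand. The 5p arm spans 93369737 to 93369758 and the 3p arm 93369775 to 93369796, each 22 bases long. No other gene or exon of GENCODE M21 (GRCm38) overlapped the hairpin. The nearest gene was the lincRNA 1810044K17Rik on the same strand, which ends 0.691 kb upstream, and the nearest other annotated miRNA gene was 296.9 kb away. Among 1679 mature mouse miRNAs in the RefSeq table, 0 others shared the seed of either arm or its whole sequence.

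Library depth, read from the RPM steps (RPM scales each library to a common read total), ranged from 2.38 to 10.5 M reads on listed miRNAs. The HF+CR libraries held 3.46, 5.50 and 2.90 M. The hepatocyte marker miR-122-5p was abundant and averaged 255902 ± 34384 RPM in HF+CR and 270736 ± 19822 RPM in LF+CR (SD, n = 3 each). Pancreas is another source of miR-802, and the pancreatic miRNAs miR-375-3p, miR-216a-5p and miR-217-5p together reached 116 RPM in the library HF+CR 1 and 333 RPM in LF+CR 1, against 2.85 to 40.05 RPM in the other 16 libraries. The whole pancreas list of 9 entries did not set HF+CR 1 apart. It summed to 1129 RPM there, 1431 RPM in LF+CR 1, 1173 RPM in HF 2 and 1151 RPM in LF 3. Its member miR-7a-5p averaged 886 RPM over the 18 libraries. Fragment-like entries, a list meant as a sign of RNA quality, had 6 of 8 entries in the table. Their sums ranged over 136 to 340.5 RPM in HF+CR, 31.7 to 435 RPM in HF+Ex (435 RPM in HF+Ex 1), 46.1 to 162 RPM in HF, 38.8 to 59.0 RPM in LF+CR, 27.0 to 59.8 RPM in LF+Ex and 33.8 to 39.2 RPM in LF.

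miR-802-5p was the major arm, at 3138 RPM on average over the 18 libraries, the 39th highest mean of the 351 miRNAs tested. It stood at 1770.1, 2504 and 2357 RPM in HF+CR, at 3230.0, 3116 and 3552 RPM in HF+Ex, and at 2911, 2915 and 4166 RPM in HF. On the LF diet it stood at 4282, 3289 and 3607 RPM in LF+CR, at 2146, 2368 and 4464 RPM in LF+Ex, and at 2462, 3886 and 3464 RPM in LF. HF+CR held the lowest group mean, and its 3 values lay below all those of HF+Ex, HF and LF+CR but not below all those of LF+Ex or LF. With 3 libraries a group such separation was common: HF+CR did not overlap HF+Ex for 19.1% of the 351 miRNAs (10.8% in the lower direction), HF for 14.5% (9.4% lower) and LF+CR for 27.6% (3.7% lower). The lowest and the highest library, HF+CR 1 and LF+Ex 3, differed 2.52-fold.

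miR-802-3p was the minor arm, at 218 RPM on average, the 116th highest mean of the 351. It stood at 97.5, 115 and 157 RPM in HF+CR, at 252, 207 and 221 RPM in HF+Ex, and at 167, 249 and 302 RPM in HF. On the LF diet it stood at 308, 299.7 and 267 RPM in LF+CR, at 131, 185 and 246 RPM in LF+Ex, and at 167, 221 and 336 RPM in LF. HF+CR was again lowest, with all 3 values below every value of HF+Ex, HF, LF+CR and LF; only LF+Ex overlapped it. HF+CR did not overlap LF for 15.4% of all miRNAs, 6.27% in the lower direction. LF+CR was highest on average and the tightest group, with an SD of 21.7 RPM.

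**Figure D1:**
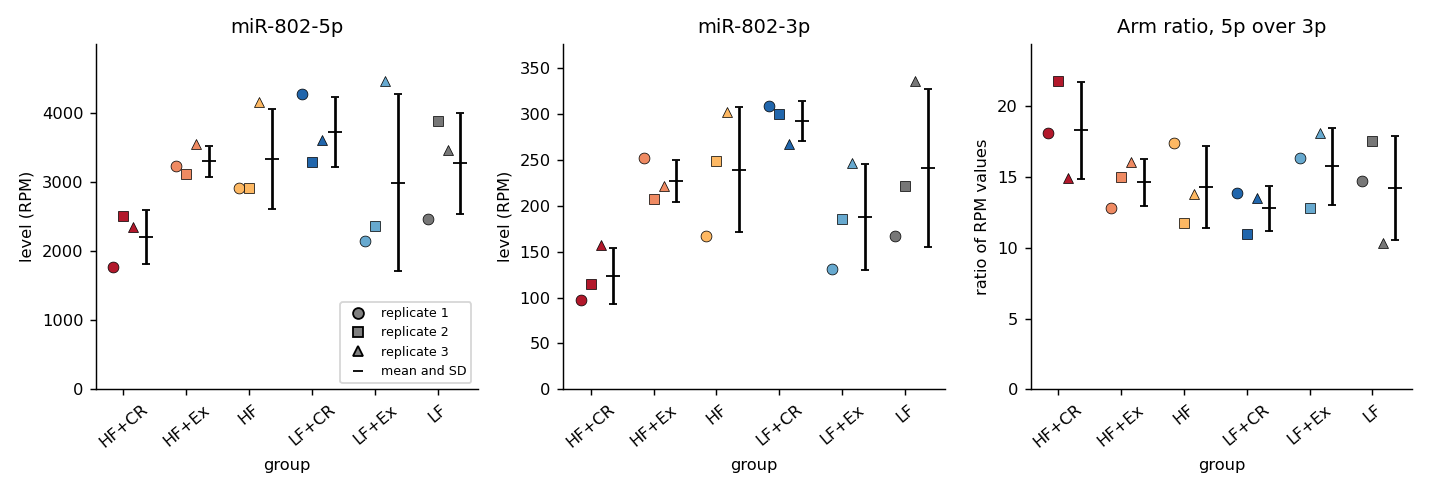
Levels of miR-802-5p and miR-802-3p (RPM) and their ratio in each of 18 libraries, by group; symbols mark the replicate number, and bars show the mean and SD of 3 libraries. HF+CR has the lowest mean of both arms, 2210.4 RPM for 5p and 123 RPM for 3p, and the highest mean ratio, 18.3.

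Ordered by mean 5p level, the groups were HF+CR (2210.4 ± 388 RPM), LF+Ex (2993 ± 1279 RPM), LF (3271 ± 731 RPM), HF+Ex (3299.5 ± 226 RPM), HF (3331 ± 724 RPM) and LF+CR (3726 ± 507 RPM; SD, n = 3 each). For 3p the order was HF+CR (123 ± 30.8 RPM), LF+Ex (188 ± 57.6 RPM), HF+Ex (227 ± 22.8 RPM), HF (239 ± 67.8 RPM), LF (241 ± 86.1 RPM) and LF+CR (292 ± 21.7 RPM). In both orders the ranges of all neighbouring groups overlapped, and both orders began with HF+CR and LF+Ex and ended with LF+CR.

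The effect of diet among calorie-restricted mice gave the 1 call of the 36 tests made, which covered 2 arms and the ratio in 12 comparisons. miR-802-3p was lower in HF+CR (123 ± 30.8 RPM) than in LF+CR (292 ± 21.7 RPM; SD, n = 3 each), and all 3 HF+CR libraries lay below every LF+CR library. The log2 difference was -1.26 (SE 0.29, limma adjusted p = 0.0191), a level 0.417 times that of LF+CR (95% interval 0.273 to 0.636). Its test is on log2(RPM + 1) with Benjamini-Hochberg adjustment over all 351 miRNAs, called at an adjusted p under 0.05. The major arm differed in the same direction without passing the test: miR-802-5p averaged 2210.4 ± 388 RPM in HF+CR and 3726 ± 507 RPM in LF+CR, a log2 difference of -0.76 (SE 0.25, adjusted p = 0.0677), and its groups did not overlap either.

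In that comparison 10.5% of the 351 miRNAs were called, 32 higher and 5 lower, and the median over all was 0.38. Groups that did not overlap were found for 27.6% of miRNAs and, in the lower direction, for 3.7%. Only 4 of the 351 had a lower log2 difference than miR-802-3p, and 15 had a lower one than miR-802-5p. Since most miRNAs moved upward here, scaling matters: rescaling by size factors shifted the median by -0.33 on the log2 scale and turned the calls into 6 higher and 19 lower. miR-802-3p was then at -1.59 (adjusted p = 0.00459) and miR-802-5p at -1.09 (adjusted p = 0.0352), so the major arm passed the test under that scaling.

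**Figure D2:**
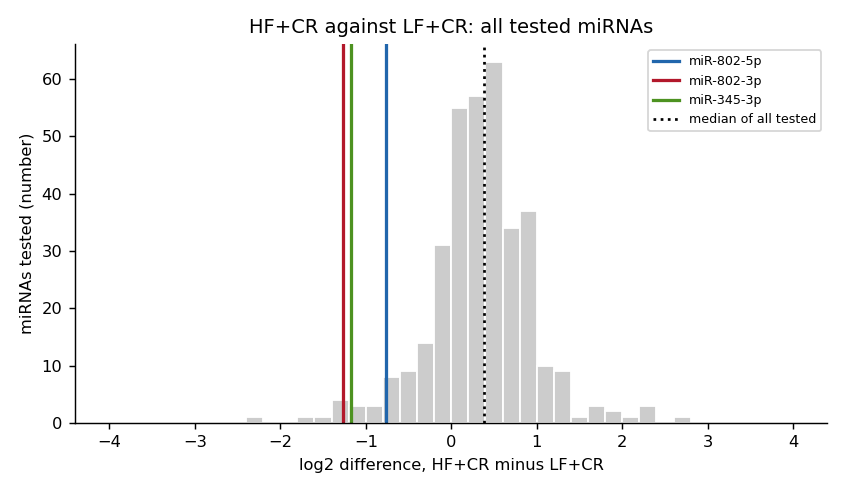
Histogram of the log2 difference between HF+CR and LF+CR for the 351 miRNAs tested (x axis, log2 scale; y axis, number of miRNAs). Lines mark miR-802-3p at -1.26, miR-345-3p at -1.17 and miR-802-5p at -0.76, all to the left of the median of 0.38.

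The call on miR-802-3p was kept in 13 of 20 alternatives, with values between -1.59 and -1.07 and adjusted p between 0.00459 and 0.188. It was lost without LF+CR 1 (-1.22, adjusted p = 0.0904), LF+CR 2 (-1.24, 0.0740) or HF+CR 1 (-1.11, 0.0735), and with only the compared groups in the fit (0.0674), where 4 miRNAs were called in all. HF+CR 1 had the lowest level of both arms and, with LF+CR 1, the most of the 3 pancreatic miRNAs named above. Without this pair of libraries the value was -1.07 (adjusted p = 0.188) and that of miR-802-5p was -0.50 (adjusted p = 0.379). A part of pancreatic RNA in the difference was otherwise not tested. Fragment-like entries were also higher in HF+CR (136 to 340.5 RPM) than in LF+CR (38.8 to 59.0 RPM). Depth was below every LF+CR library in HF+CR 1 and HF+CR 3 (3.46 and 2.90 M reads), while HF+CR 2 (5.50 M) lay above LF+CR 3 (5.12 M). HF+Ex 1 had the least depth and the most fragment-like entries of all libraries. Its miR-802-3p was 252 RPM, a value of 1 library that cannot show what depth or fragments do. The part of depth and fragment-like entries in the difference was not tested beyond leaving libraries out. Without HF+Ex 1 and HF+CR 1, the libraries with the most such entries, the value was -1.11 (adjusted p = 0.0715). Counting error was small beside the difference between HF+CR and LF+CR. The 348 reads behind miR-802-3p in HF+CR 1 give a 95% Poisson interval of 87.5 to 108 RPM. The 471 reads in HF+CR 3, the highest HF+CR library, give 144 to 172 RPM. The 1408 reads in LF+CR 3, the lowest LF+CR library, give 253 to 282 RPM. Such intervals cover counting error only, since these reads carry no molecular identifiers. In bulk tissue, fewer cells that express miR-802 and less of it per cell cannot be told apart.

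With CR added to the HF diet the arms differed in the same direction, without a call. miR-802-3p averaged 123 ± 30.8 RPM in HF+CR, against 239 ± 67.8 RPM in HF (SD, n = 3 each), a log2 difference of -0.94 (SE 0.29, adjusted p = 0.140), and miR-802-5p averaged 2210.4 ± 388 RPM in HF+CR, against 3331 ± 724 RPM in HF, a difference of -0.59 (SE 0.25, adjusted p = 0.298). The groups did not overlap for either arm, as for 14.5% of all miRNAs (9.4% in the lower direction). limma called 0% of the 351 miRNAs in this comparison, with 53 at an unadjusted p under 0.05 and 0 called with voom weights, and miR-802-3p ranked 11th by p. Without HF+CR 3, the HF+CR library highest in leukocyte and epithelial miRNAs, miR-802-3p passed the test (-1.13, adjusted p = 0.0471), as 1 of 22 miRNAs called. The sums of 9 leukocyte miRNAs were 1731, 1120 and 3590 RPM in HF+CR 1, 2 and 3. They leave out miR-142-3p and miR-142-5p, which were measured but stood on the list under other names. The part of leukocytes or epithelial cells in the difference was not tested further.

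On the LF diet, CR gave no call and an opposite sign. miR-802-3p averaged 292 ± 21.7 RPM in LF+CR, against 241 ± 86.1 RPM in LF (log2 difference 0.33, SE 0.29, adjusted p = 0.467), and miR-802-5p averaged 3726 ± 507 RPM in LF+CR, against 3271 ± 731 RPM in LF (0.21, SE 0.25, adjusted p = 0.625). Both arms overlapped between the groups, and 6.27% of all miRNAs were called. These values rested on single LF libraries and on the scaling: without LF 1 they were 0.096 for 3p and 0.014 for 5p, and without LF 3 they were 0.60 and 0.26. Size-factor rescaling, which shifted the median by 0.33, gave 0.66 for 3p (adjusted p = 0.190) and 0.54 for 5p (adjusted p = 0.311). The median of all miRNAs was -0.32 here, so both arms stood above most others: 30 of 351 miRNAs had a higher log2 difference than miR-802-3p and 44 a higher one than miR-802-5p.

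The difference between the CR effects on the HF and the LF diet was tested directly and was not called. For miR-802-3p it was -1.27 (SE 0.40, unadjusted p = 0.00665 and adjusted p = 0.191 by limma), the 12th smallest p and the 4th lowest value of the 351 miRNAs. For miR-802-5p it was -0.79 (SE 0.36, adjusted p = 0.347). In this test 0.855% of miRNAs were called. It shares the HF+CR and LF+CR libraries with the comparisons above, so these are not separate observations. Averaged over both diets, CR gave -0.30 for 3p (SE 0.20, adjusted p = 0.342) and -0.19 for 5p (SE 0.18, adjusted p = 0.511), where 6.55% of miRNAs were called. An exact permutation test within each diet gave p = 0.320 for 3p and p = 0.375 for 5p (two-sided, 400 arrangements, smallest p possible 0.005).

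No call was made for either arm on the HF diet alone, and its means were close to those of LF. miR-802-5p averaged 3331 ± 724 RPM in HF, against 3271 ± 731 RPM in LF, a log2 difference of 0.031 (SE 0.25, adjusted p = 0.987), and miR-802-3p averaged 239 ± 67.8 RPM in HF, against 241 ± 86.1 RPM in LF, a difference of 0.0066 (SE 0.29, adjusted p = 0.995). The 95% interval of the 5p ratio ran from 0.702-fold to 1.49-fold and that of 3p from 0.659-fold to 1.53-fold. With 3 libraries a group, a rise or fall within these intervals remained possible, and their ends are not limits of detection. Of all miRNAs 0.285% were called. Over all 3 regimens, HF-diet libraries differed from LF-diet libraries by -0.17 for 5p (SE 0.15, adjusted p = 0.425) and by -0.31 for 3p (SE 0.17, adjusted p = 0.166), where 18.5% of miRNAs were called. The 5p arm averaged 2947 ± 698 RPM in the 9 HF-diet libraries and 3330 ± 842 RPM in the 9 LF-diet libraries. The exact permutation tests within regimen gave p = 0.361 for 5p and p = 0.210 for 3p (two-sided, 8000 arrangements). The 3p difference passed limma's test after size-factor rescaling (-0.52, adjusted p = 0.0452) and without LF 1 and HF+CR 3 (-0.45, adjusted p = 0.0477); after that rescaling, which shifted the median by -0.19, 49 miRNAs were called, 26 higher and 23 lower, against 65, 56 higher and 9 lower, as deposited.

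Exercise was not followed by a called difference in either arm. On the HF diet, miR-802-5p averaged 3299.5 ± 226 RPM in HF+Ex and 3331 ± 724 RPM in HF (log2 difference 0.0054, SE 0.25, adjusted p = 0.9999), and miR-802-3p averaged 227 ± 22.8 RPM in HF+Ex, against 239 ± 67.8 RPM in HF (-0.039, SE 0.29, adjusted p = 0.995), with 0.855% of miRNAs called. On the LF diet, 5p averaged 2993 ± 1279 RPM in LF+Ex and 3271 ± 731 RPM in LF (-0.18, SE 0.25, adjusted p = 0.759), and 3p averaged 188 ± 57.6 RPM in LF+Ex and 241 ± 86.1 RPM in LF (-0.35, SE 0.29, adjusted p = 0.567). limma called 0% of miRNAs there, with 41 at an unadjusted p under 0.05 and 1 called with voom weights. LF+Ex 3 held 4464 RPM of 5p against 2146 and 2368 RPM in the other LF+Ex libraries, the widest group for this arm. Between diets under exercise, 5p differed by 0.22 (SE 0.25, adjusted p = 0.596) and 3p by 0.32 (SE 0.29, adjusted p = 0.492) for HF+Ex minus LF+Ex, with 8.26% called. Averaged over both diets, exercise gave -0.088 for 5p (SE 0.18, adjusted p = 0.955) and -0.19 for 3p (SE 0.20, adjusted p = 0.881), with 0% called by limma, 12 at an unadjusted p under 0.05 and 0 with voom weights. The exercise effect on HF minus that on LF was 0.19 for 5p (SE 0.36, adjusted p = 0.848) and 0.31 for 3p (SE 0.40, adjusted p = 0.738), with 0.855% called.

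**Figure D3:**
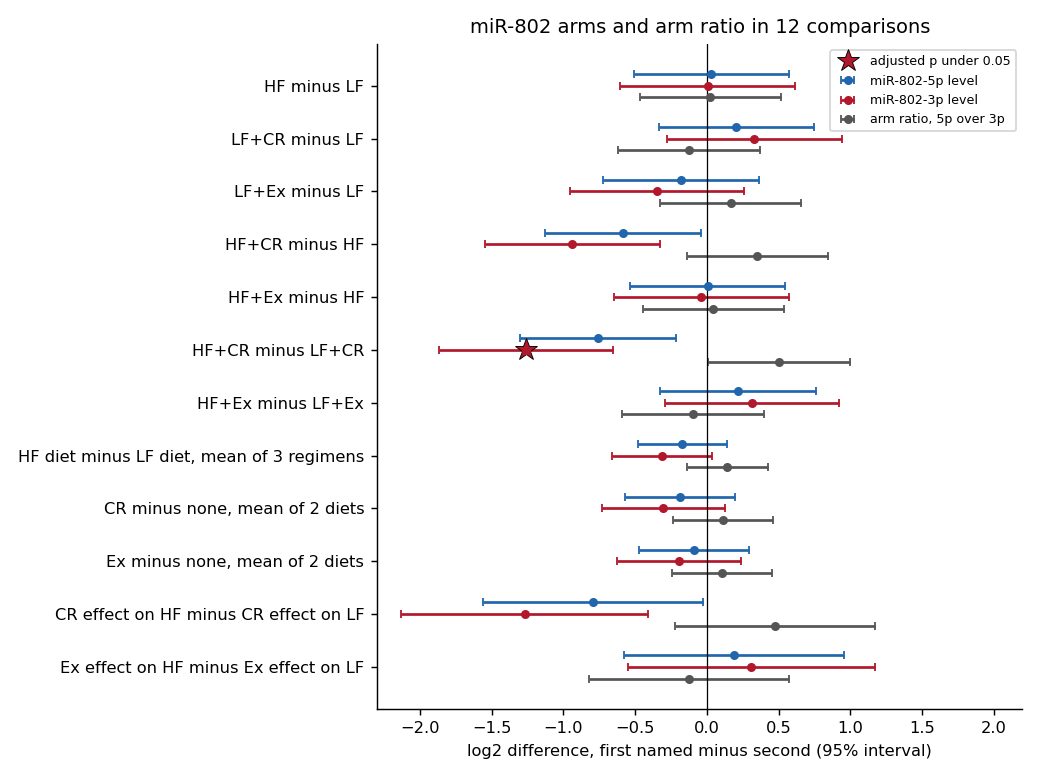
Log2 difference and 95% interval of miR-802-5p, miR-802-3p and the arm ratio in the 12 comparisons, first named group minus second; the star marks an adjusted p under 0.05. The star is on miR-802-3p in HF+CR minus LF+CR, at -1.26, and the 3 comparisons with HF+CR as a single or differenced group hold the lowest values of both arms.

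The arm ratio set 5p over 3p in the same library, so a change of the whole hairpin cancels out of it. It averaged 15.002 ± 2.92 over the 18 libraries (SD), from 10.3 in LF 3 to 21.8 in HF+CR 2. It stood at 18.2, 21.8 and 14.97 in HF+CR, at 12.8, 15.02 and 16.1 in HF+Ex, and at 17.4, 11.7 and 13.8 in HF. On the LF diet it stood at 13.9, 10.97 and 13.5 in LF+CR, at 16.4, 12.8 and 18.1 in LF+Ex, and at 14.8, 17.6 and 10.3 in LF. HF+CR had the highest mean and LF+CR the lowest, and these groups did not overlap, while LF alone spanned most of the range.

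The ratio was compared on the log2 scale in a limma fit over the 100 miRNAs with both arms tested, and it was called in none of the 12 comparisons. Of all pairs, 13% were called in HF+Ex minus LF+Ex, 11% for the difference of the exercise effects, 4% in HF+Ex minus HF, 1% in LF+Ex minus LF and 0% in the other 8 comparisons, where 10 to 23 of 100 were at an unadjusted p under 0.05, or 2 for exercise over both diets. The largest difference was in HF+CR minus LF+CR, at 0.50 (SE 0.24, unadjusted p = 0.0465, adjusted p = 0.202), with 0% of pairs called by limma, 23 of 100 at an unadjusted p under 0.05 and 21% without overlap (11% higher). No second tool was run on the ratios. HF+CR minus HF gave 0.35 (SE 0.24, adjusted p = 0.586), and the difference between the CR effects on both diets gave 0.48 (SE 0.33, adjusted p = 0.541). Thus 3p was lower than 5p by a larger factor in HF+CR, but the test of that difference did not pass. HF minus LF gave 0.025 (SE 0.24, adjusted p = 0.941; 95% interval -0.47 to 0.52), and the remaining 8 comparisons lay between -0.13 and 0.17. The exact permutation tests over the 3 averaged comparisons gave p = 0.304 for diet, p = 0.530 for CR and p = 0.515 for exercise; with those of both arms they made 9 tests, whose adjusted p ran from 0.596 to 0.695.

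Put as reads, the 3p arm took 4.39% (HF+CR 2) to 8.83% (LF 3) of the reads on both arms. In HF+CR the shares were 5.22% (95% Wilson interval 4.71% to 5.78%), 4.39% (4.07% to 4.73%) and 6.26% (5.74% to 6.83%). In LF+CR they were 6.72% (6.47% to 6.98%), 8.35% (7.999% to 8.72%) and 6.90% (6.56% to 7.25%). Libraries of 1 group differed by more than these intervals: in LF the shares were 6.35%, 5.38% and 8.83%, and the interval of LF 3 (8.54% to 9.14%) was apart from that of LF 2 (5.13% to 5.64%).

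**Figure D4:**
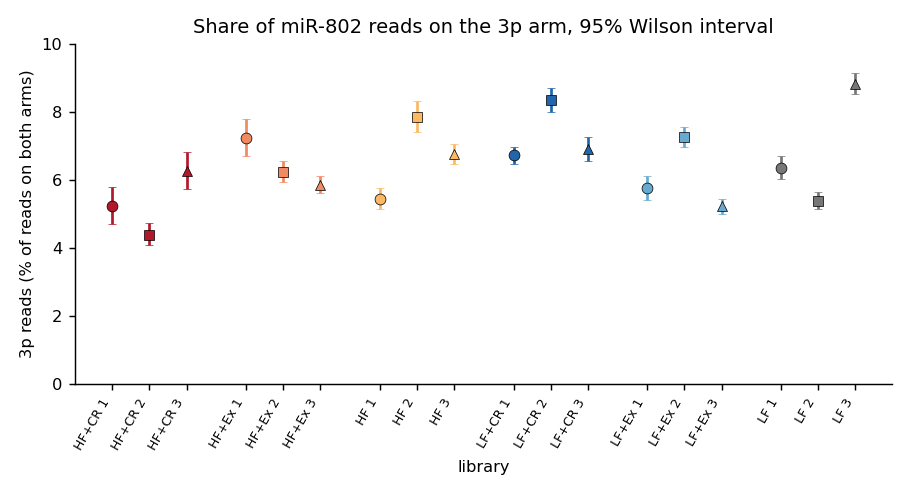
Share of miR-802 reads on the 3p arm in each library (% of reads on both arms) with its 95% Wilson interval, which covers counting error only. The HF+CR libraries lie at 4.39% to 6.26% and the LF+CR libraries at 6.72% to 8.35%, while LF spans 5.38% to 8.83%.

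Both arms varied together. Over the 18 libraries the log2 levels of 5p and 3p had a Pearson r of 0.85 (permutation p = 1e-05, the smallest that 100000 resamples can give) and a Spearman rho of 0.79 (permutation p = 1.1e-04). Without HF+CR 1 and LF+Ex 1, the libraries farthest from the median of 5p, r was 0.74 (permutation p = 0.00121). These permutations ran freely across the groups, so differences between groups enter the p-values. With group means removed r was 0.70, given as a description without a test, so the arms also varied together within groups. The relation of 5p to 3p was the 1 relation tested between measures. Both values come from the same library and share its scaling. Log2 depth had an r of 0.31 with 5p, 0.23 with 3p and -0.014 with the ratio over the same libraries, given as a description.

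**Figure D5:**
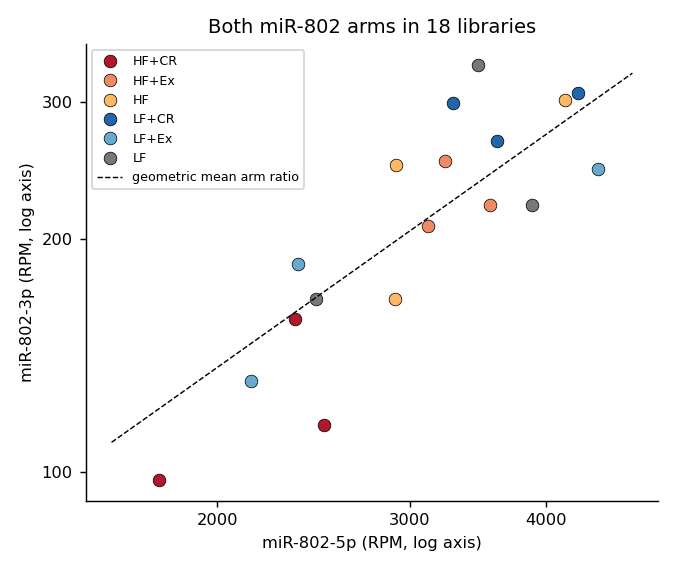
miR-802-3p against miR-802-5p (RPM, both axes logarithmic) in 18 libraries, coloured by group; the dashed line is the geometric mean of the arm ratio, 14.7. The 3 HF+CR libraries, with 97.5 to 157 RPM of 3p, lie below the line, HF+CR 3 only just, and LF+Ex 1, at 131 RPM, lies among them.

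Set against other hairpins, the miR-802 arm ratio was neither extreme nor unusually variable. Of the 100 pairs, 64 had more 5p than 3p on average, as miR-802 did. The size of its mean log2 ratio, 3.87, was exceeded by 52 pairs, and the median over pairs was 4.27. The SD of its log2 ratio over all libraries was 0.28, the 20th lowest, where the median pair had 0.38. The pairs were not matched for the level of their arms, so this rank is not against hairpins of like abundance. The log2 levels had an SD of 0.37 for 5p, larger than in 15 of the 21 other miRNAs whose mean was within 2-fold of it, and of 0.51 for 3p, larger than in 40 of 58 such miRNAs. Removing group means lowered these to 0.33 and 0.37.

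Other miRNAs linked to glucose and insulin signalling were called in both directions. Of the 33 tested members of that list, 2 rose and 1 fell in HF+CR against LF+CR, with a median log2 difference of 0.17 beside 0.38 over all miRNAs. At 3 of 33, the calls were near the 10.5% of all miRNAs. The 33 leave out miR-497-5p (0.53, limma adjusted p = 0.598), which was measured but stood on the list under another name. miR-27b-3p, a regulator of lipid metabolism genes, was at 0.68 (SE 0.14, adjusted p = 0.0170), miR-335-5p, which lies in the imprinted gene Mest, at 0.96 (SE 0.29, adjusted p = 0.0497), and miR-29c-3p, a repressor of collagen genes, at -0.62 (SE 0.15, adjusted p = 0.0263). In HF+CR against HF, 0 of 33 were called, with a median of -0.030 beside -0.049 over all. In LF+CR against LF, 2 rose and 2 fell, where 6.27% of all miRNAs were called, with a median of -0.26 beside -0.32. In HF against LF, 1 rose, miR-33-5p of the sterol regulator gene Srebf2, with a list median of 0.024 beside 0.052. For diet over all regimens 5 rose and 4 fell, where 18.5% of all miRNAs were called, with a median of -0.0097 beside 0.19. For CR over both diets 4 fell and 0 rose, where 6.55% were called, with a median of -0.12 beside -0.17. Over all miRNAs the directions of the calls depended on the scaling. Size-factor rescaling turned them into 26 higher and 23 lower for diet, against 56 higher and 9 lower as deposited. For CR over both diets it gave 3 higher and 5 lower, against 1 higher and 22 lower as deposited. These counts are not of the list, and the directions of its members under that rescaling were not examined.

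Markers of other cell types that a liver sample could hold were mostly above 0 in HF+CR against LF+CR, as miRNAs were in general. The medians were 0.94 for the 8 tested leukocyte miRNAs, 0.34 for the 4 endothelial, 0.37 for the 7 stellate and mural and 0.36 for the 11 epithelial. They were 0.43 for the 7 neuronal, 0.011 for the 4 pancreatic and -0.22 for the 4 erythroid. Called among them were miR-214-3p of stellate cells, at 1.87 (SE 0.51, adjusted p = 0.0372), and, of the hepatocyte list, miR-455-3p at 1.07 (SE 0.30, adjusted p = 0.0417). The 12 hepatocyte miRNAs had a median of -0.018. Of these, miR-122-5p was at -0.088 (SE 0.13, adjusted p = 0.646), miR-192-5p at -0.22 (SE 0.15, adjusted p = 0.294) and miR-194-5p at -0.057 (SE 0.15, adjusted p = 0.820), so none of the 3 abundant hepatocyte markers had a difference as low as either miR-802 arm.

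The miRNAs whose levels were most like those of each arm were named by the highest Pearson r of log2(RPM + 1) over the 18 libraries, among 349 others tested. For miR-802-5p these were miR-542-3p (r = 0.64), miR-152-3p (0.62), let-7f-5p (0.57), miR-322-5p (0.56) and miR-345-3p (0.55), where the median over all others was -0.13. For miR-802-3p they were miR-322-5p (0.71), miR-345-3p (0.67), miR-582-5p (0.64), miR-378b (0.62) and miR-582-3p (0.62), against a median of -0.076. miR-322-5p and miR-542-3p lie in 1 cluster of the X chromosome, and miR-582-5p and miR-582-3p are the arms of 1 hairpin. All these values share their libraries and the scaling to library total.

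The 2 miRNAs on both lists are described by their values in HF+CR and LF+CR; they were chosen for their likeness over these same libraries, so these are not separate observations. miR-345-3p stood at 9.25, 5.64 and 6.68 RPM in HF+CR and at 18.4, 18.1 and 14.99 RPM in LF+CR, groups that did not overlap, and was called lower (log2 difference -1.17, SE 0.23, adjusted p = 0.00999). With group means removed its r with miR-802-3p was 0.030 and with miR-802-5p 0.016, so its likeness lay between groups. miR-322-5p averaged 452 ± 68.1 RPM in HF+CR and 622 ± 87.7 RPM in LF+CR (SD, n = 3 each), a difference of -0.46 (SE 0.15, adjusted p = 0.0651) that did not pass. miR-582-5p varied most, at 7.85, 14.1 and 293 RPM in HF+CR and 181, 209 and 131 RPM in LF+CR, and its difference of -2.34 did not pass (SE 1.09, adjusted p = 0.159).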

How the data were processed

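Livers were flash frozen, RNA was extracted with Trizol and enriched for small RNA, and libraries followed standard Illumina chemistry, per the labels' protocols. Per the file headers, the authors gave each of 758 mature miRNAs in RPM, which scales reads to a common library total. The submitters' processing notes name mm10 as build. Not given in the sources used here are the aligner, the counter and any filters. Sample titles gave groups and replicate numbers. In every library 100% of values were whole multiples (tolerance 0.001 reads) of 1 step, taking the smallest listed value as 2 reads; read numbers rest on that step.

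The 351 miRNAs with at least 5 RPM in at least 3 libraries were tested on log2(RPM + 1) with limma 3.58.1 in R 4.3.3: 1 fit of all 18 libraries, 1 coefficient per group, an intensity trend, two-sided, Benjamini-Hochberg adjustment. A fold change is on that scale, which understates the change of low miRNAs. RPM are shares, so every difference is relative to the library. The arm ratio used the same fit over 100 arm pairs. Both fits were tested on simulated data. Permutation tests and intervals used scipy 1.17.1; figures used matplotlib 3.10.9. The members and lists were chosen with earlier results of these data known. Named miRNAs were both arms, the 5 most like each arm by Pearson r, called members of the fixed lists (at most 8 a comparison) and a few hepatocyte and pancreatic markers.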

Additional observations from a re-analysis of the deposited data

How the results depend on the processing

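Of 762 alternative values for the 36 results, 714 kept their direction and their side of the threshold, 35 changed sign, 7 lost a call and 6 gained one. In HF+CR minus LF+CR, miR-802-3p lost its call with only the compared groups in the fit (-1.26, adjusted p = 0.0674), without LF+CR 1 and HF+CR 1 (-1.07), without HF+Ex 1 and HF+CR 1 (-1.11) and without the 3 libraries of least depth (-1.33), where the lone HF+CR library is assumed to vary like the other groups; these leave fewer libraries in the fit. With 1 library left out it ran from -1.45 to -1.11 and kept its call in 3 of 6. miR-802-5p passed there after size-factor rescaling (-1.09) and with the replicate block (-0.76, adjusted p = 0.0423). In HF+CR minus HF, miR-802-3p passed without LF 1 and HF+CR 3 (-1.13) and ran from -1.17 to -0.75 with 1 library left out. For HF-diet minus LF-diet over 3 regimens, miR-802-3p passed after size-factor rescaling (-0.52) and without LF 1 and HF+CR 3 (-0.45). The cause was not tested. The count of miRNAs called in HF+CR minus LF+CR, 37 in the test reported, ran from 3 to 51 over the alternatives, and the counts in HF+CR minus HF, LF+CR minus LF and the averages of diet and CR ran from 0 to 25, 0 to 40, 6 to 91 and 0 to 78. The alternatives that leave out chosen pairs or sets of libraries, and voom weights, were added after the data were seen.

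All sign changes were of values that were not called. In HF minus LF, 5p and 3p were at -0.026 and -0.051 after size-factor rescaling, at -0.021 and -0.046 with miR-122-5p left out of the total, and at -0.16 and -0.23 without LF 1 and HF+CR 3. Rescaling also gave 5p -0.0079 in HF+Ex minus LF+Ex, 0.0052 for CR over both diets and 0.0073 for Ex over both diets, and leaving out miR-122-5p gave 3p 0.011 in HF+Ex minus HF. With 1 library left out, HF minus LF ran from -0.16 to 0.17 for 5p, -0.23 to 0.27 for 3p and -0.19 to 0.19 for the ratio. HF+Ex minus HF ran from -0.081 to 0.18 for 5p, -0.28 to 0.15 for 3p and -0.089 to 0.19 for the ratio. LF+Ex minus LF ran from -0.51 to 0.018 for 5p and -0.047 to 0.34 for the ratio, LF+CR minus LF from 0.014 to 0.34 for 5p, 0.096 to 0.60 for 3p and -0.34 to 0.045 for the ratio, and HF+Ex minus LF+Ex from -0.24 to 0.013 for the ratio. Ex over both diets ran from -0.25 to 0.012 for 5p and -0.0012 to 0.19 for the ratio, and the difference of the Ex effects from -0.012 to 0.52 for 5p and -0.29 to 0.091 for the ratio.

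The replicate numbers showed no clear pairing of the libraries, but this check cannot tell whether some libraries shared a batch. Deviations of same-numbered libraries had a mean r of 0.029 (from -0.42 to 0.61), with 14 of 45 pairs over 0.1. Of 18 libraries, 7 correlated best with their own number. In HF+CR minus LF+CR the replicate block lowered the SE from 0.29 to 0.23 for 3p. For 5p it lowered the SE from 0.25 to 0.23, and 5p was then called. The replicate block changed no other call of the 36. The voom weights used the read numbers inferred from the RPM steps. No other count model was run on these reads, since they rest on taking the smallest listed value as 2 reads. With 3 libraries a group, a result without a call leaves any difference within its interval possible. Larger differences can also go without a call, as did miR-802-5p in HF+CR minus LF+CR at -0.76.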
